A study of Rattus norvegicus with 6 samples.

Results

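Casein kinase 1 (CK1) and casein kinase 2 (CK2) are distinct serine/threonine kinase families that share a historical name. Of 24360 gene rows in the deposited counts, 6 belong here: the CK2 catalytic subunit genes Csnk2a1 and Csnk2a2, the CK2 regulatory subunit gene Csnk2b, and the CK1 genes Csnk1a1, Csnk1d and Csnk1e. They were matched by symbol, and 25 of 44501 transcript rows name 1 of them as source gene. The family was selected on results of the Rb2 against Ctrl comparison that were already known. Values of that comparison are therefore given as a description, and adjusted p-values place each gene among all genes tested without being independent evidence.

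RNA came from H9c2, a cell line from embryonic rat heart that grows as myoblasts. The labels name 3 control samples (Ctrl, treatment NC, genotype WT) and 3 samples given ginsenoside Rb2, a ginseng saponin (Rb2, genotype WT). One protocol text covers all 6 and describes 48 h of ginsenoside Rb2, 4 to 6 h without glucose and oxygen, and 12 h of their return. Whether the Ctrl samples went through the deprivation is not given in the sources used here, and neither is whether replicates were separate cultures. The p-values therefore weigh a group difference only against the spread between these samples, and that spread may be technical.

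Libraries held 5193077 to 8793390 counts, and 3 counts, the limit that a count of 0 allows, corresponded to 0.341 to 0.578 CPM, the count scaled to the library total (counting error only). Ctrl replicate 1 was the deepest library and stood apart. On the first principal component (42.3% of variance) it lay at -47.0, the other Ctrl samples at -18.1 and 0.56, and the Rb2 samples between 18.1 and 23.8. Casein kinase fold changes are also given without this library. The cells are labelled embryonic cardiomyocytes. Of 11 cardiac marker genes with a row, 3 passed edgeR's filter on low counts (Tnnt2, Gata4 and Nkx2-5), Actc1 had no count and Myh7 had 1. Col1a2, a fibrillar collagen gene, was at 1378 ± 172 CPM for Ctrl and 1454 ± 106 for Rb2 (SD, n = 3 each). None of the 3 tested cardiac, 5 skeletal muscle and 7 fibroblast or smooth muscle markers was called between the groups. Krt8, the 1 epithelial marker tested, was not called either, and of the endothelial and leukocyte markers none passed the filter. Of the 7 fibroblast or smooth muscle markers, 3 did not overlap between the groups, as for 27.2% of all genes tested. They are named after their values were seen, and nothing is read from that count. The collagen gene Col3a1 was higher in every Rb2 sample (log2 fold change 0.41, edgeR adjusted p = 0.0546), and the smooth muscle genes Acta2 (-0.32, edgeR adjusted p = 0.0828) and Tagln (-0.29, edgeR adjusted p = 0.0655) were lower in every one. Markers of that list were called in 6 of 17 alternatives, 1 as higher and 2 as lower without Ctrl replicate 1. Their part in the casein kinase values was not tested. In such bulk libraries, fewer cells of a type and less RNA per cell cannot be told apart.

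CK2 is a constitutively active tetramer in which a dimer of the beta subunit, encoded by Csnk2b, holds catalytic subunits alpha (Csnk2a1) and alpha prime (Csnk2a2). It phosphorylates acidic sites in many proteins of the nucleus, nucleolus and translation machinery. CK1 enzymes act as monomers. CK1 alpha (Csnk1a1) makes the priming phosphorylation of beta-catenin in its destruction complex, and CK1 delta (Csnk1d) and CK1 epsilon (Csnk1e) phosphorylate PER proteins of the circadian clock and act in Wnt signalling through Dishevelled.

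Promoter windows were available for 4 of the 6 genes in a RefSeq table of rat assembly GRCr8. The 250 bases before the start site are shown for 2 of them. Csnk1a1 is the gene of the 6 that was higher with Rb2, and Csnk2a1 the gene of the 6 whose group means lay closest together. Capitals mark matches on either strand to an ETS core (CCGGAAG) or a GC box (GGGCGG), which may overlap.
Csnk1a1, GRCr8 chr18:57287162-57287411, plus strand: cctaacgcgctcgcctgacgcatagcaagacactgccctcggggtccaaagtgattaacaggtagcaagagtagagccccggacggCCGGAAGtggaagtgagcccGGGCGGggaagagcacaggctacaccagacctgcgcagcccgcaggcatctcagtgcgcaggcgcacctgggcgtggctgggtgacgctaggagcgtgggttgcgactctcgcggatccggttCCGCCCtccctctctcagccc
Csnk2a1, GRCr8 chr3:161170141-161170390, plus strand: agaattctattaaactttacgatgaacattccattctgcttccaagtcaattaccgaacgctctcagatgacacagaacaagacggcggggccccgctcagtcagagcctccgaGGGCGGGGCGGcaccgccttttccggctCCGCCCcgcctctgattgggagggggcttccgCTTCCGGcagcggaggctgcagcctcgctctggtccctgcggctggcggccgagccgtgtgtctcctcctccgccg

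Both windows were GC-rich, at 66.0% for Csnk1a1 and 63.2% for Csnk2a1, against a median of 51.2% over all 33469 windows of the same length. Each held 1 ETS core, which 7.3% of all windows held. GC boxes numbered 2 in the Csnk1a1 window and 3 in the Csnk2a1 window, and 30.5% of all windows had at least 1. The windows of Csnk2a2 and Csnk1e, not printed, held 6 and 4 GC boxes and no ETS core. No TATA box (TATAAA, in 12.9% of all windows) and no E-box (CACGTG, in 5.6%) was found in any of the 4, which says only that these letters are not in these windows. Both windows shown thus held an ETS core and GC boxes. Whether any match is bound, or bears on the levels of these genes, was not tested.

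Per kilobase of gene length, Csnk2b was the most abundant of the family by a wide margin and Csnk1e the least. Csnk2b lay between 85.6 and 110 CPM per kb over the 6 samples, which put its mean at the 91.1st percentile of all genes tested. Csnk1d followed at 15.1 to 21.0 CPM per kb. Csnk2a2 (5.80 to 18.3), Csnk1a1 (5.75 to 12.7) and Csnk2a1 (5.32 to 9.09) overlapped one another, so that their order is not larger than the spread between samples. Csnk1e was at 0.675 to 3.40 CPM per kb, below every sample of the other 5 genes. Between Ctrl and Rb2 the order of group means per kb changed at Csnk1a1. It had rank 5 in Ctrl at 6.89 ± 1.17 CPM per kb and rank 3 in Rb2 at 11.7 ± 1.00 (SD, n = 3 each). Whether reads were long or short is not settled by the files, and length scaling holds only for short reads. On the unscaled CPM, too, Csnk2b was highest and Csnk1e lowest in every sample.

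**Figure D1:**
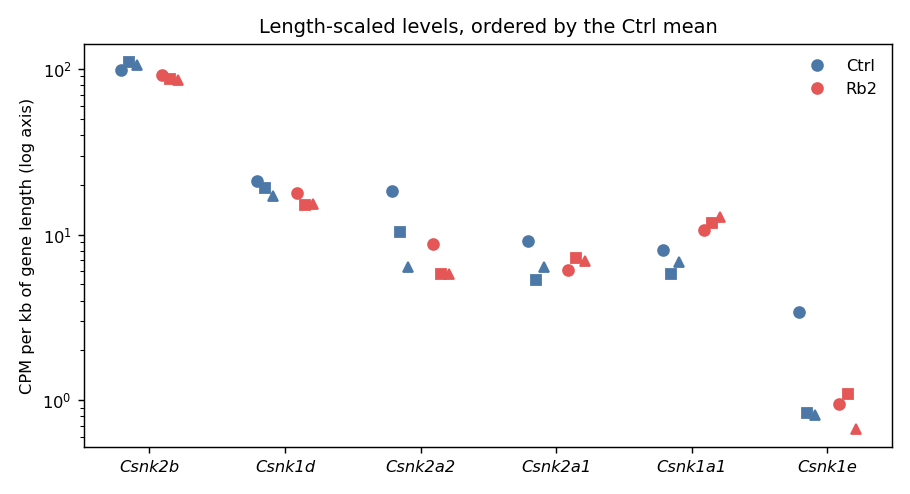
Levels of the 6 genes as CPM per kb of gene length on a log axis, with 1 point per sample (circle, square and triangle for replicates 1, 2 and 3). Csnk2b lies above 85 and Csnk1e below 4 in all 6 samples, and Csnk1a1 is the gene whose Rb2 points lie clear above its Ctrl points.

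All 6 genes passed the filter, and 1 of them, Csnk1a1, was called in the fit over all genes (edgeR quasi-likelihood, Benjamini-Hochberg adjusted p under 0.05). Over all 11551 genes tested, 2.70% were called, 1.90% as higher and 0.805% as lower in Rb2. The other 5 casein kinase genes had lower means in Rb2 and were not called. The groups did not overlap for 2 of the 6 genes, Csnk1a1 and Csnk2b, as for 27.2% of all genes tested. Because these genes were picked with the same comparison known, nothing is read from those shares.

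Csnk1a1 (ENSRNOG00000017106) had 291, 139 and 171 counts in Ctrl replicates 1 to 3 and 263, 296 and 302 counts in Rb2 replicates 1 to 3. Scaled for depth these were 35.3, 25.1 and 29.9 CPM in Ctrl and 46.8, 51.3 and 55.6 CPM in Rb2. All Rb2 samples were above all Ctrl samples. The means were 30.1 ± 5.10 and 51.2 ± 4.38 CPM (SD, n = 3 each), so that Csnk1a1 rose 1.69-fold (log2 fold change 0.76 with an SE of 0.15, edgeR adjusted p = 0.0413). The adjusted p lay close to the threshold and was 0.161 without Ctrl replicate 2 and 0.101, 0.198 and 0.173 without Rb2 replicates 1, 2 and 3, with log2 fold changes of 0.66 to 0.82. Without Ctrl replicate 1 the log2 fold change was 0.91 (edgeR adjusted p = 0.00117).

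Csnk1a1 is the longest of the 6 genes at 4368 bases, and counts in Rb2 came from longer transcripts on average (1250 ± 5.79 bases, against 1191 ± 31.8 in Ctrl; SD, n = 3 each). With a correction of each library for gene length the log2 fold change of Csnk1a1 was 0.63 (edgeR adjusted p = 0.0471). RefSeq also names 2 pseudogenes each of Csnk1a1 and Csnk2a1, so that counts of both genes are uncertain where reads could be split among near-identical copies.

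Csnk1d (ENSRNOG00000036676) measured 86.5, 78.3 and 70.4 CPM in the Ctrl samples, and 73.9, 62.0 and 62.7 CPM with Rb2. The groups overlapped in the range from 70.4 to 73.9 CPM. Its log2 fold change was -0.24 (SE 0.12, edgeR adjusted p = 0.305), and -0.15 without Ctrl replicate 1 (edgeR adjusted p = 0.412). In RefSeq Csnk1d overlaps Slc16a3, which encodes a lactate transporter and had at most 4 counts in any sample here. The ratio of Csnk1a1 to Csnk1d, both per kb, was 0.385, 0.303 and 0.400 in Ctrl and 0.597, 0.779 and 0.835 in Rb2. Every Rb2 sample thus had more Csnk1a1 relative to Csnk1d than any Ctrl sample, while Csnk1d remained the more abundant of the pair in all 6.

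Csnk1e (ENSRNOG00000013076) had 84 counts in Ctrl replicate 1 and 11 to 19 in each of the other 5 samples. Its depth-scaled level was 10.2, 2.53 and 2.45 CPM in Ctrl and 2.85, 3.29 and 2.02 CPM in Rb2. Ctrl replicate 1 alone was high, and the other 5 samples lay together. The log2 fold change of -0.95 (SE 0.58, edgeR adjusted p = 0.407) turned to 0.15 without that library (edgeR adjusted p = 0.849). A difference in Csnk1e was not detected, with or without Ctrl replicate 1, and counts in the other 5 samples were low.

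Of the CK2 genes, Csnk2b (ENSRNOG00000000847) had 1628, 1224 and 1215 counts in Ctrl and 1045, 1013 and 940 in Rb2. Scaled for depth these were 198, 221 and 212 CPM in Ctrl and 186, 176 and 173 CPM in Rb2. All Rb2 samples were below all Ctrl samples, with means of 210 ± 12.0 and 178 ± 6.90 CPM (SD, n = 3 each; edgeR log2 fold change -0.24 with an SE of 0.09, adjusted p = 0.173). Csnk2b was not called with all samples, but was called without Ctrl replicate 1 (log2 fold change -0.27, edgeR adjusted p = 0.0282). In RefSeq it overlaps Gpank1, whose level was 18.9 ± 1.35 CPM for Ctrl and 15.6 ± 2.10 for Rb2 (SD, n = 3 each; a log2 fold change of -0.28, edgeR adjusted p = 0.388). Whether the counting used strand is not given in the sources used here, so reads of the pair may not have been told apart.

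Both catalytic subunit genes were below Csnk2b in every sample. Csnk2a1 (ENSRNOG00000005276) measured 19.8, 11.6 and 13.8 CPM in the Ctrl samples, and 13.3, 15.8 and 15.1 CPM with Rb2. The Rb2 values lay within the Ctrl range, and the log2 fold change was -0.04 (SE 0.22, edgeR adjusted p = 0.936), or 0.23 without Ctrl replicate 1 (edgeR adjusted p = 0.467). Csnk2a2 (ENSRNOG00000011933) measured 37.1, 21.0 and 12.9 CPM in the Ctrl samples, and 17.8, 11.8 and 11.8 CPM with Rb2. Ctrl replicates 1 and 2 were high, while Ctrl replicate 3 lay within the Rb2 range. The means were 23.7 ± 12.3 CPM against 13.8 ± 3.47 with Rb2 (SD, n = 3 each; edgeR log2 fold change -0.79 with an SE of 0.37, adjusted p = 0.280). Without Ctrl replicate 1 the log2 fold change of Csnk2a2 was -0.28 (edgeR adjusted p = 0.551).

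At the RNA level, the balance of CK2 subunit genes did not separate the groups. The ratio of Csnk2b to the sum of Csnk2a1 and Csnk2a2, per kb, was 3.57, 7.0 and 8.26 in Ctrl and 6.18, 6.66 and 6.72 in Rb2. Ctrl replicate 1, in which both catalytic subunit genes were highest, gave the lowest ratio. Csnk2a1 over Csnk2a2 was 0.497, 0.514 and 0.995 in Ctrl and 0.699, 1.25 and 1.19 in Rb2, with overlapping groups.

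**Figure D2:**
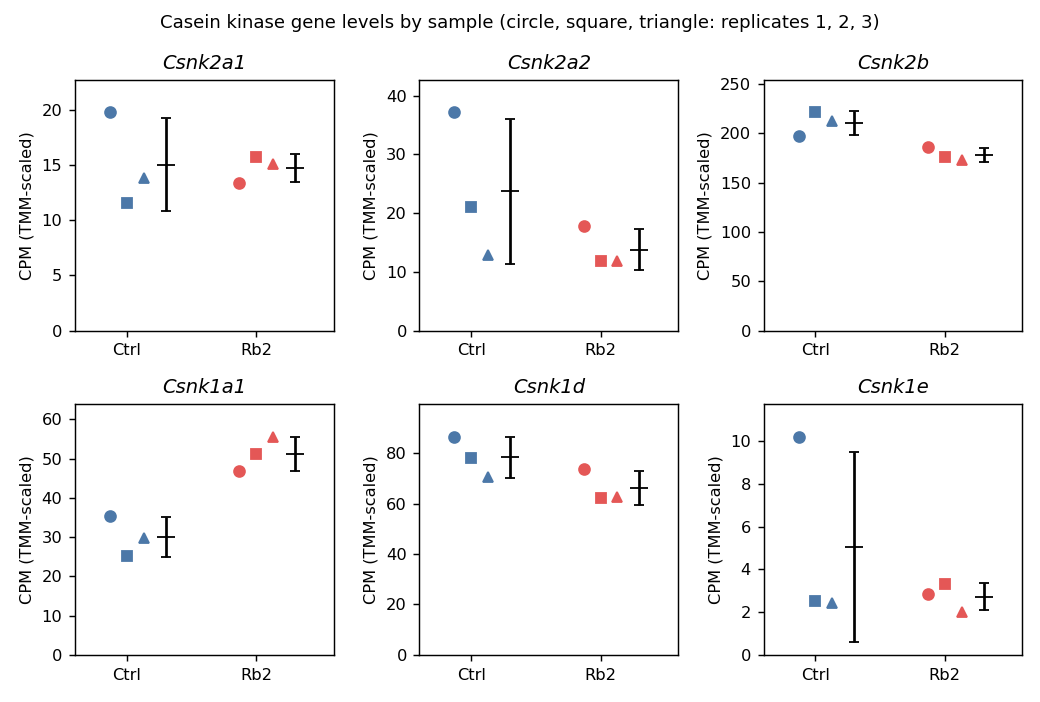
Depth-scaled CPM of each casein kinase gene in every sample, with the group mean and SD (n = 3) as black bars; each vertical axis starts at 0. Ctrl replicate 1 (blue circle) is the highest Ctrl sample for every gene except Csnk2b, and Csnk1a1 and Csnk2b are the genes whose groups do not overlap.

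**Figure D3:**
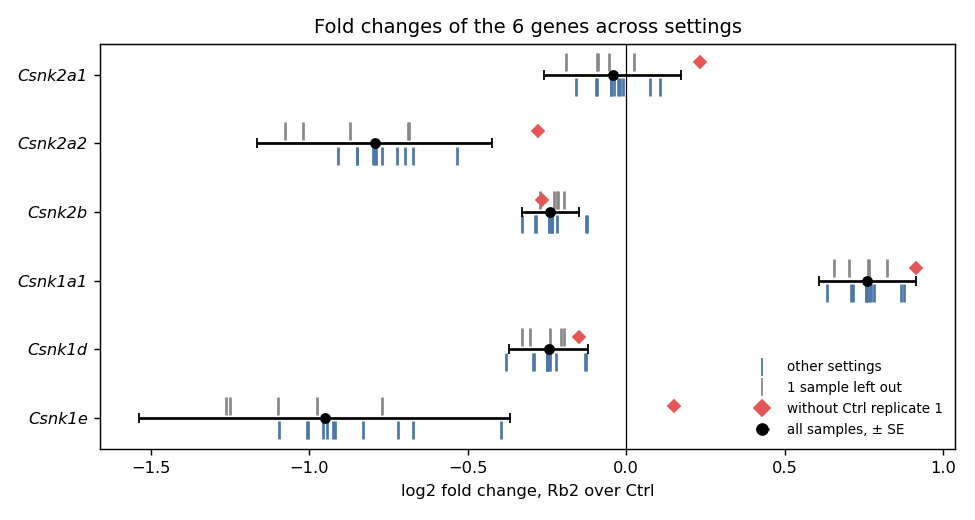
Log2 fold change of each gene (Rb2 over Ctrl) with all samples and its SE in black, under other settings (blue ticks) and with 1 sample left out (grey ticks, and a red diamond without Ctrl replicate 1). Csnk1a1 stays between 0.63 and 0.91 throughout, while Csnk1e and Csnk2a1 move across 0 without Ctrl replicate 1, and Csnk2a1 also under 2 other settings and without Rb2 replicate 1.

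Of the 25 transcripts of these genes, 11 are annotated and 14 are new models of the authors; 22 had a count and 11 passed the filter. At least 5% of their gene's counts in either group went to 14 transcripts, of which 7 are new models. For Csnk1a1 and Csnk1d the main transcript was such a model. ONT.8283.6 (4235 bases) took 83.4% ± 5.88 of Csnk1a1 counts in Ctrl and 86.8% ± 2.16 in Rb2, and ONT.4162.4 (3685 bases) took 90.3% ± 6.67 and 93.7% ± 2.29 of Csnk1d counts (SD, n = 3 each). None of the 11 tested transcripts was called, nor was any of all 16679 transcripts tested (0% called by edgeR, with 2304 at an unadjusted p under 0.05).

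ONT.10803.2, a new model of Csnk2b, has 941 bases, 13 more than the annotated Csnk2b-201. It had 134, 82 and 48 counts in Ctrl replicates 1 to 3 and 0 counts in each Rb2 sample. Its share of Csnk2b counts was 8.23%, 6.70% and 3.95% in Ctrl and 0% in Rb2 (exact two-sided permutation p = 0.1, the smallest that 3 against 3 samples allow). That p follows from the full separation of the groups and adds nothing to the counts. Pooled over the Ctrl samples it was at 12.9 unscaled CPM. That is 70.0 times the 0.184 CPM that 3 counts over the pooled Rb2 samples would give. This ratio covers counting error only and leaves out the spread between samples. The sequence of the model is not in the tables, so what it encodes and where it differs from Csnk2b-201 was not analysed here.

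Csnk2b was 1 of 14 genes called for transcript usage, the share of each transcript within its gene (diffSpliceDGE of edgeR, Simes adjusted p = 0.000940), where 0.417% of 3361 genes were called. This call rests on ONT.10803.2, which passed the filter only through its Ctrl counts. Without it Csnk2b has 1 tested transcript and no usage test, so the call adds nothing to the counts above. With limma-voom and diffSplice it was lost (adjusted p = 0.185), as it was with the replicate number as a block (adjusted p = 0.0663). As a transcript level, ONT.10803.2 itself missed the threshold (edgeR adjusted p = 0.0622). Patterns of this kind occurred elsewhere among the 44501 transcripts. Counts in all Ctrl samples and none in Rb2 were found for 177, 5 of them (this one included) with at least 264 counts. The opposite was found for 102, 1 of them with at least 264 counts. Pooled depth was greater in Ctrl, at 20462900 counts against 16284800 in Rb2.

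Csnk2b-201, the main transcript, had 1464, 1125 and 1147 counts in Ctrl and 1034, 1003 and 920 in Rb2. Its level was 195 ± 12.5 CPM and 176 ± 7.01 CPM (SD, n = 3 each; a log2 fold change of -0.15, edgeR adjusted p = 0.482). Its Rb2 mean, too, was below its Ctrl mean. With both transcripts scaled by the library sizes of the gene table, which differ slightly from those behind the transcript levels just given, the difference can be divided. Of the 32.2 CPM between the group means of the Csnk2b gene, 13.2 CPM (40.9%) lay in ONT.10803.2 and 18.1 CPM (56.2%) in Csnk2b-201.

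Among the other CK2 transcripts, Csnk2a1-201 took 82.2%, 90.6% and 89.9% of its gene in Ctrl and 93.3%, 94.5% and 95.1% in Rb2. ONT.11509.5, a short model of Csnk2a1 of 504 bases, took 15.3%, 9.38% and 10.1% of its gene in Ctrl and 6.67%, 5.49% and 3.66% in Rb2. For both the groups did not overlap, but these shares nearly complement each other and are a single pattern. The shares of the short model rest on 3 to 25 counts, and it did not pass the filter. How often shares separate the groups over all transcripts was not computed, so nothing is read from this pattern or from ONT.8573.4 below. Csnk2a2 was divided among 3 transcripts. The annotated Csnk2a2-201 took 49.0% ± 10.8 in Ctrl and 40.5% ± 5.52 in Rb2, ONT.8573.1 took 26.3% ± 13.05 and 30.9% ± 5.15, and ONT.8573.4 took 24.1% ± 2.47 and 28.2% ± 1.21, without overlap of the groups (SD, n = 3 each). Usage was not called in Csnk2a2, Csnk1a1 or Csnk1d (Simes adjusted p = 1.00 in each, diffSpliceDGE), and Csnk2a1 and Csnk1e had too few transcripts past the filter to be tested.

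Within the CK1 genes some minor transcripts were uneven between samples of the same group. The annotated Csnk1a1-202 took 11.7% of Csnk1a1 counts in Ctrl replicate 1 and 1.69% to 3.42% in the other 5 samples. Csnk1d-202 took 13.7%, 7.39% and 1.74% in Ctrl and 0.482%, 6.98% and 5.57% in Rb2. Csnk1e was counted as Csnk1e-203 (62.7% ± 18.2 in Ctrl, 63.4% ± 5.43 in Rb2) and Csnk1e-202 (SD, n = 3 each), from at most 11 counts per transcript in any sample but Ctrl replicate 1. These shares do not separate the groups.

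**Figure D4:**
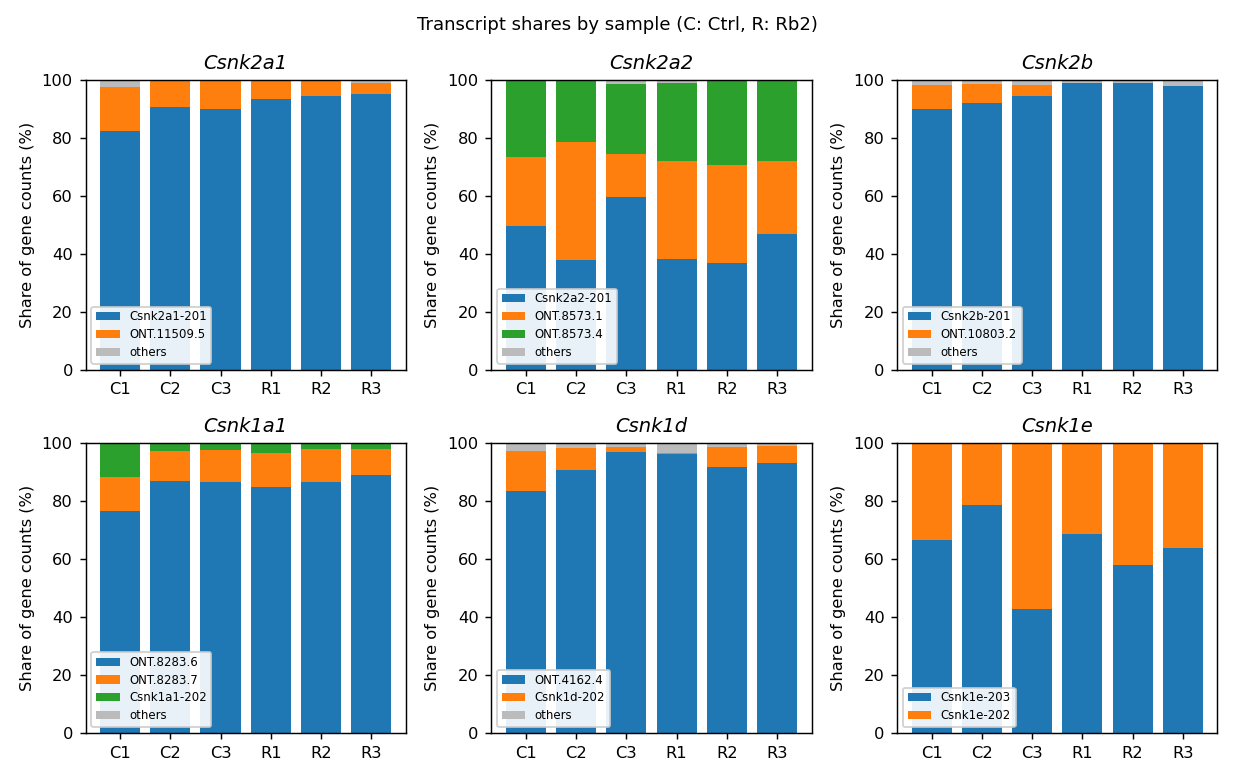
Share of each gene's counts taken by its transcripts in every sample (C1 to C3 Ctrl, R1 to R3 Rb2), with transcripts under 5% of the mean in both groups drawn together in grey. The orange part of the Csnk2b bars, ONT.10803.2, falls from 3.95% to 8.23% in Ctrl to 0% in Rb2, and the Csnk2a2 and Csnk1e bars vary as much within groups as between them.

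Of the remaining CK1 isoforms, Csnk1g3, which encodes the membrane-associated CK1 gamma 3, rose from few counts. It had 11, 8 and 8 counts in Ctrl and 19, 22 and 17 in Rb2, or 1.39 ± 0.06 and 3.44 ± 0.35 CPM (SD, n = 3 each; edgeR log2 fold change 1.30 with an SE of 0.28, adjusted p = 0.0474). Its call was lost in 11 of 17 alternatives, DESeq2 gave it no adjusted p, and the adjusted p over the others ran from 0.0303 to 0.222. Csnk1g2 was not called (25.4 ± 14.0 and 16.6 ± 3.43 CPM, edgeR adjusted p = 0.375), and Ctrl replicate 1 again held its highest value, 342 counts. Its log2 fold change of -0.63 was -0.044 without that library. Of 3 tested kinases of the wider CK1 group none was called. Vrk2, the most abundant over all 6 samples though not in Ctrl, was at 12.8 ± 5.33 and 23.1 ± 2.85 CPM (SD, n = 3 each; a log2 fold change of 0.87, edgeR adjusted p = 0.122), and 1 of the 3 was called without Ctrl replicate 3.

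Partners and substrates of CK1 held no called gene with all samples. None of 9 tested members of the beta-catenin destruction complex and Wnt receptor module was called, with a median log2 fold change of -0.44 against -0.02 over all genes tested, and of -0.12 without Ctrl replicate 1. The most abundant of them, the Dishevelled gene Dvl3, was at 29.7 ± 3.22 and 29.5 ± 4.05 CPM (SD, n = 3 each; edgeR adjusted p = 0.973). Ctnnb1, which encodes beta-catenin and is named after its values were seen, was at 17.9 ± 4.32 and 13.2 ± 2.67 CPM (edgeR adjusted p = 0.314). Of 3 tested Wnt target genes none was called, and the most abundant, the cyclin gene Ccnd1, was at 181 ± 46.1 and 168 ± 1.05 CPM (edgeR adjusted p = 0.753, log2 fold change -0.11). Nkd2, an inhibitor of Wnt signalling named after its values were seen, was lower in every Rb2 sample, at 10.7 ± 0.49 and 5.84 ± 1.02 CPM (SD, n = 3 each; log2 fold change -0.87, edgeR adjusted p = 0.0598). Of the 3 Wnt targets, 1 was called lower with the length correction and without Ctrl replicate 1. None of 5 tested clock substrates and partners was called. Arntl, a clock activator, was at 7.51 ± 1.36 and 10.9 ± 1.76 CPM (edgeR adjusted p = 0.227). Per2, a CK1 delta and epsilon substrate named after its values were seen, was at 4.29 ± 0.88 and 2.45 ± 0.75 CPM (edgeR adjusted p = 0.195).

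Among 20 tested CK2 substrates and chaperones, 5 were called higher, none was called lower and 15 were not called. Over all genes tested, 1.90% were called higher and 0.805% lower. The median log2 fold change of the list was 0.27 against -0.02 over all genes. Some genes that were not called are named after their values were seen. Hsp90ab1, the most abundant of the list, and Bad were lower in every Rb2 sample (log2 fold changes -0.25 and -0.14). Others, such as Hsp90aa1 and Ncl, were higher in every one (0.75 and 0.44). Of the called genes, Eif2s2, Top2a and Hdac2 were already known to be higher when the list was made, so the count is no independent evidence. Eif2s2, the beta subunit of initiation factor eIF2, went from 56.1 ± 4.24 to 118 ± 7.07 CPM (SD, n = 3 each; a log2 fold change of 1.07, edgeR adjusted p = 0.00362). Top2a, a topoisomerase, went from 13.5 ± 0.61 to 30.9 ± 1.43 CPM (edgeR adjusted p = 0.00751), and the deacetylase gene Hdac2 from 19.0 ± 3.03 to 39.7 ± 12.2 CPM (adjusted p = 0.0464). Npm1, a nucleolar histone chaperone, went from 354 ± 53.1 to 546 ± 22.6 CPM (log2 fold change 0.63, edgeR adjusted p = 0.0327). Ssb, the La protein that binds the ends of polymerase III transcripts, went from 110 ± 6.25 to 175 ± 17.3 CPM (log2 fold change 0.67, edgeR adjusted p = 0.0210). The number called higher was 1 without Ctrl replicate 2, 2, 0 and 1 without Rb2 replicates 1, 2 and 3, and 8 without Ctrl replicate 1, and 2 to 9 under the other settings. Cdc37, the co-chaperone that CK2 phosphorylates, was at 190 ± 2.20 and 181 ± 12.5 CPM and was not called (edgeR adjusted p = 0.715; named after its values were seen).

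Other kinases and the phosphatases that oppose them were not called with all samples. Of 15 tested catalytic subunits of other serine/threonine kinases none passed, with a median log2 fold change of 0.02, and the most abundant, Mapk3, was at 109 ± 13.9 and 102 ± 4.96 CPM (SD, n = 3 each; edgeR adjusted p = 0.664). Without Ctrl replicate 1, 1 of the 15 was called higher and 1 lower. None of 6 tested PP1 and PP2A subunit genes passed. Ppp1ca, the most abundant, was at 550 ± 43.0 and 510 ± 20.1 CPM (SD, n = 3 each; edgeR adjusted p = 0.522). Ppp1cb, the PP1 beta catalytic subunit gene, named after its values were seen, was higher in every Rb2 sample, at 18.4 ± 8.32 and 36.7 ± 4.03 CPM (SD, n = 3 each; log2 fold change 1.02, edgeR adjusted p = 0.134). Of the 6 subunit genes, 1 was called higher with DESeq2 and without Ctrl replicate 1. Among 2 tested CK1 anchors and activators, Fam83d, which carries CK1 alpha to the mitotic spindle, was at 9.05 ± 3.48 and 10.8 ± 0.61 CPM (SD, n = 3 each; edgeR adjusted p = 0.630).

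The genes whose level most resembled each casein kinase across the 6 samples were found by Pearson correlation of log2 CPM among 6545 named genes that averaged 5 CPM or more. The samples share depth, the group difference and the pull of Ctrl replicate 1, so the values only describe likeness. Csnk1a1 was most like Phf14 (r = 0.990), Usp48 (0.989) and Scaf11 (0.989), over 6 samples. Csnk2b was most like the elongation factor gene Eef1d (0.994), the ribosomal protein gene Rplp0 (0.989) and Cox7a2l (0.989). Among the genes closest to Csnk1d were Hsdl1 (0.993) and Qsox1 (0.990). For Csnk2a2 the closest were Sparc (0.997), Trmt112 (0.996) and Atox1 (0.996), for Csnk2a1 they were Vps26b (0.989), Creb3l1 (0.989) and Keap1 (0.975), and for Csnk1e they were Msantd3 (0.999), Actg1 (0.996) and Dyrk1b (0.993).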

How the data were processed

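RNA of 3 Ctrl and 3 Rb2 samples was analysed. The authors deposited whole-number counts per gene and per transcript, with lengths in bases, and CPM tables whose values equal the deposited count over the column total (largest difference 4.9e-11). Per the submitters' processing notes, HISAT2, DESeq2 and mm10 played a part, with no role or order stated. All 14622 known gene rows carry rat identifiers, so no file coordinates are given. For counter, annotation version and read type nothing is given in the sources used here. Another 18 per-sample columns in the tables, which belong to no sample here, were not used.

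Counts were tested with edgeR 4.0.16 (R 4.3.3; TMM, filterByExpr on group, robust quasi-likelihood fit, group as the term), adjusted by Benjamini-Hochberg over all rows tested. A call is an adjusted p under 0.05. CPM in the text is TMM-scaled unless called unscaled; the SE is the fold change over the root of its F statistic. Transcript usage was tested with diffSpliceDGE. Closest pairs of samples differed beyond sampling noise (chi-square per degree of freedom of at least 1.71). Alternatives used limma 3.58.1, DESeq2 1.42.0, other scalings, filters, a length offset (loess, span 0.5), a replicate term and each sample left out. Scripts were tested on simulated data. The genes, lists and naming rule (all casein kinase genes, transcripts of at least 5% share, called list genes or else the most abundant) were chosen with earlier results of these data known. One gene that the rule on likeness names is not reported here.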

Additional observations from a re-analysis of the deposited data

How the results depend on the processing

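Of the 6 casein kinase genes, 1 was called with all samples, and the same gene, Csnk1a1, under RLE, upper-quartile and library-size scaling, no filter, a mean count of 10, DESeq2 and the length offset. The number called was 0 with limma-voom, with limma on log2 deposited CPM plus 1, with known genes only, and with the replicate block, and ran from 0 to 2 when 1 sample was left out. Csnk1a1 kept a positive fold change in all 17 alternatives. No casein kinase transcript was called in the main test, and 1 was called with no filter (ONT.10803.2), with DESeq2 (ONT.8283.6) and with limma on log2 CPM plus 1 (ONT.10803.2). Usage was called in 1 gene, Csnk2b, and in 0 with limma-voom diffSplice and with the replicate block (adjusted p = 0.185 and 0.0663). The replicate numbers did not pair the samples: same-numbered samples had deviations from their group means correlated at -0.07, -0.06 and -0.01, and 0 of 6 samples correlated best with their own number. With the block 12 genes were called higher and 21 lower over all genes, against 219 and 93 without it. Csnk2a1 went from -0.04 to 0.074 with library size only and to 0.11 on the deposited CPM, and from -0.19 to 0.23 over left-out samples. Over left-out samples Csnk1e ran from -1.26 to 0.15, Csnk2a1-201 from -0.052 to 0.28, ONT.8573.4 from -0.91 to 0.0099 and Csnk1e-203 from -1.37 to 0.18. Scaling by library size only shifted the median log2 value over all tested genes from -0.016 to 0.096. The cause of these changes was not tested. Depth limits Csnk1e, Csnk1g3 and every minor transcript, which rest on few counts.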
